A study of Mus musculus with 8 samples.

Results

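Follicle-stimulating hormone (FSH) acts in the testis on Sertoli cells, the somatic cells that line the seminiferous tubules and nurse the germ cells. Its receptor, Fshr, signals mainly through cAMP, and Sertoli cells answer by secreting inhibin B, which lowers FSH release from the pituitary. Inhibins and activins are built from the same chains: inhibin A and B pair the alpha chain Inha with a beta chain (Inhba or Inhbb), activins pair beta chains with each other, and follistatin (Fst) binds and blocks activins. Anti-Müllerian hormone (Amh), a hormone of immature Sertoli cells, signals through its own type 2 receptor, Amhr2.

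These 7 genes were followed in testis RNA of mice homozygous for a mutant Vrk1 allele (VRK1-/-) and of wild-type mice (VRK1+/+), with 4 arrays of each genotype. Vrk1 encodes a nuclear serine/threonine kinase. The RNA came from whole testicular cells, and every sample was a biological replicate of its own experiment, read on 1 Agilent mouse array in 1 colour. The sources used here do not give the age, strain or litters of the mice, the kind of Vrk1 allele or any pooling of animals. The genes were found by their names in the array files, which gave 9 probes of 41174 distinct probes on the array and 7 of 27962 gene names. Of these genes, 5 had 1 probe, and Inha and Inhbb had 2 each. All 9 probes entered the test, which took probes well above background on 4 or more of the 8 arrays.

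Levels are the log2 of the processed signal relative to the 75th percentile of the signals on that array, so 0 is the level of that percentile. A level of one probe cannot be set against that of another. The arrays were not alike in brightness: the 75th percentile was 928 to 1124 on mutant and 680 to 790 on wild-type arrays, and 83.3% to 86.5% of features on mutant arrays lay well above background, against 73.2% to 77.5% on wild-type arrays. The arrays of each genotype shared a scan date of their own in the file headers. The effects of the scan, or of anything handled along with it, and of genotype cannot be told apart. The targeted gene was 4.79-fold lower in the mutant with the Vrk1 probe A_51_P102339 (log2 -2.26, limma adjusted p = 1.65e-04) and 4.17-fold lower with A_52_P555672 (log2 -2.06, adjusted p = 1.24e-04). All 16 markers of germ cells passed the filter on dim probes, as did all 22 markers of Sertoli cells. Mutant replicates 1 and 4 stood apart in markers of the epididymis, the duct that leaves the testis: the mean level over the 11 tested markers was -1.42 and -1.59 on these arrays, -2.64 and -2.94 on mutant replicates 2 and 3, and -3.67 to -3.23 on the wild-type arrays. Crisp1, a secreted sperm-coating protein of the epididymis, was at 2.50, -2.40, -4.20 and 2.80 on mutant replicates 1 to 4, against -5.56, -4.98, -5.23 and -5.16 on the wild-type arrays.

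Expression was higher in the mutant for 6 of the 9 probes, by limma at a Benjamini-Hochberg adjusted p under 0.05, and lower for 0. The 6 probes belonged to Fshr, Amhr2, Inha (both probes), Inhba and Inhbb. At an unadjusted p under 0.05, 7 probes were higher and 0 lower. Over all 33716 tested probes 21.2% were called higher and 10.8% lower. In 5 of the 9 probes every mutant array lay above every wild-type array, a separation that 21.6% of all tested probes showed. The median difference over all tested probes was 0.05. How the calls split depended on the scaling: 66.2% of called probes were higher in the mutant with the 75th percentile, 33.9% with median scaling and 40.3% with normexp background correction. Among the members 4 probes were called higher under each of the last 2 settings. With median scaling 1 member probe was called lower, and with normexp 0 were. Of all 33716 tested probes, 4489 were called higher and 8768 lower with median scaling. With normexp 2092 were called higher and 3097 lower. Without mutant replicates 1 and 4, a fit with fewer mutant arrays, 0 of the 9 probes passed in limma (5 higher and 1 lower at an unadjusted p under 0.05). Few probes passed in that fit at all: 1318 of all probes (3.91%) were called higher and 220 lower. All 9 differences then kept their sign.

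**Figure D1:**
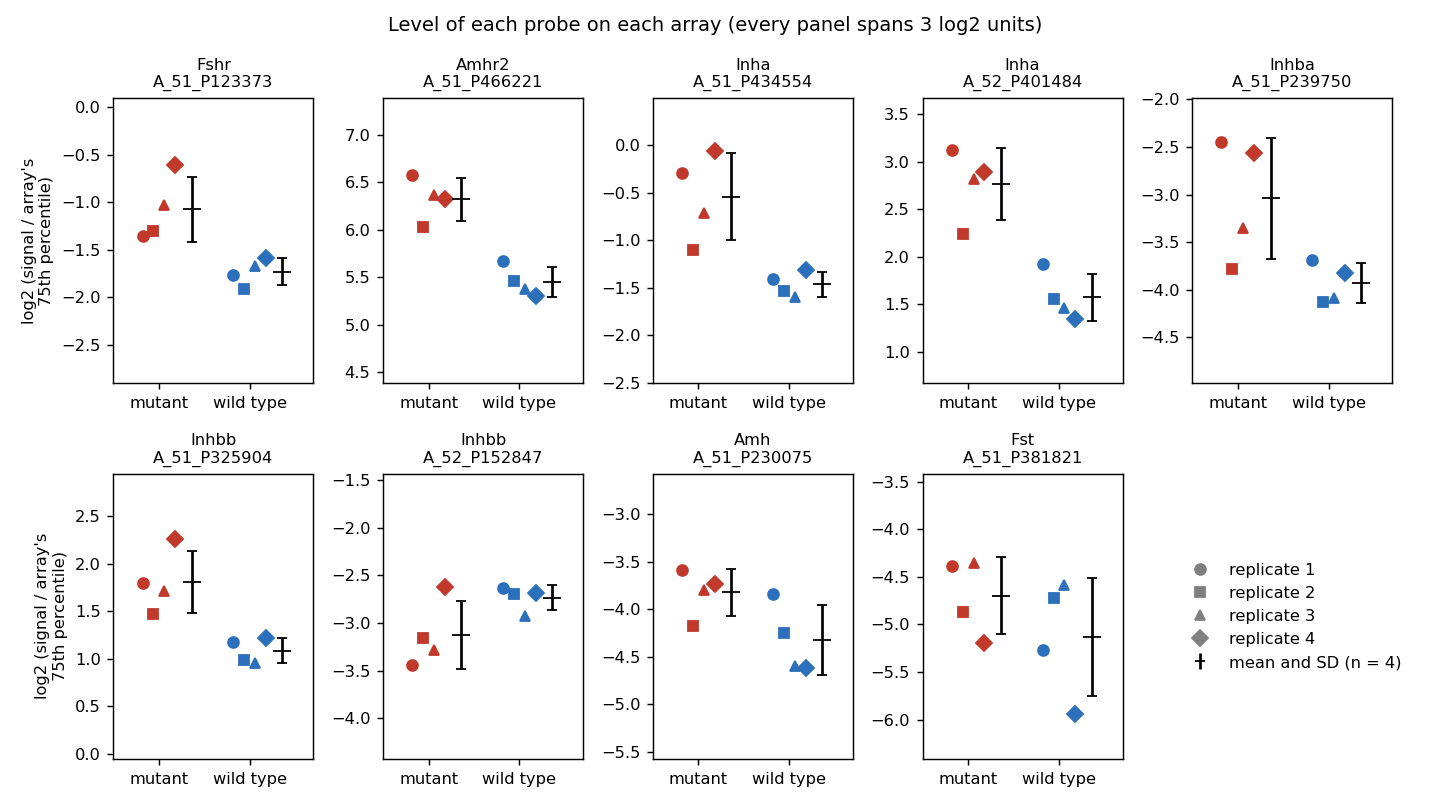
Level of each of the 9 probes on each array, as log2 of the signal over the 75th percentile of the array, with mutant arrays in red on the left, wild-type arrays in blue on the right, and the mean and SD of 4 arrays beside each group. The mutant points lie wholly above the wild-type points for Fshr, Amhr2, both Inha probes and Inhbb A_51_P325904, and overlap for Inhba, Inhbb A_52_P152847, Amh and Fst.

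The sequences below are the 60-base probes of Fshr, Amhr2 and Inha and the Inhbb probe that went the other way. They run 5′ to 3′ in the sense of the transcript as the array files give them. They show which piece of each transcript a level stands for.
Fshr A_51_P123373: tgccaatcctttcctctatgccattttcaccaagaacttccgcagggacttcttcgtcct
Amhr2 A_51_P466221: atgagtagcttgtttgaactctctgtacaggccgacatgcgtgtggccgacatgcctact
Inha A_51_P434554: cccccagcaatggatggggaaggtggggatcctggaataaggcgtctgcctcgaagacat
Inha A_52_P401484: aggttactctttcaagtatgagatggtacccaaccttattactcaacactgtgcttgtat
Inhbb A_52_P152847: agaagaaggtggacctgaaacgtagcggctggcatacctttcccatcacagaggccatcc

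Fshr, the Sertoli cell receptor for FSH, was higher in the mutant by a modest amount. Its probe (A_51_P123373, chr17:87292342-87292401, minus strand, in the mm7 build of the array files) was at -1.35, -1.31, -1.03 and -0.61 on mutant replicates 1 to 4, against -1.76, -1.92, -1.67 and -1.59 on wild-type replicates 1 to 4. All 4 mutant arrays lay above the wild-type arrays, and mutant replicate 4 was the highest. The mean was -1.07 ± 0.34 in the mutant and -1.73 ± 0.14 in wild type (SD, n = 4 each), a difference of 0.66 (SE 0.18, 95% interval 0.25 to 1.07, 1.58-fold, limma adjusted p = 0.0241). The call ended with median scaling (0.44, adjusted p = 0.0719), quantile normalization (0.57, adjusted p = 0.0507) and normexp (0.48, adjusted p = 0.0734). It also ended without mutant replicate 3 (0.65), wild-type replicate 2 (0.60) or wild-type replicate 3 (0.68), and without both mutant replicates 1 and 4 (0.57).

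Amhr2, the type 2 receptor that binds AMH, had the smallest standard error of the 6 called probes. Its probe (A_51_P466221, chr15:102440656-102440715, plus strand, mm7) was at 6.57, 6.03, 6.36 and 6.32 on the mutant arrays, against 5.67, 5.46, 5.38 and 5.30 on the wild-type arrays. All 4 mutant arrays lay above all wild-type arrays. The mean of 6.32 ± 0.22 in the mutant stood against 5.45 ± 0.16 in wild type (SD, n = 4 each), with a difference of 0.87 (SE 0.16, 95% interval 0.52 to 1.22, 1.83-fold, limma adjusted p = 0.00484). It passed under all 4 other scalings and in all 8 fits that left out 1 array, but not without both mutant replicates 1 and 4 (0.74, adjusted p = 0.0627). In the same range of brightness, a mean level above 4, the 1473 tested probes had a median difference of -0.44 and 2.65% were called higher.

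The AMH hormone gene itself gave no call with the 75th percentile when genotype alone was fitted to all 8 arrays at equal weight. Amh (A_51_P230075, chr10:80597080-80597139, plus strand, mm7) was at -3.59, -4.17, -3.80 and -3.73 on the mutant arrays, against -3.84, -4.25, -4.59 and -4.61 on the wild-type arrays. The groups overlapped through mutant replicate 2. The difference was 0.50 (SE 0.21, 95% interval 0.04 to 0.96, limma adjusted p = 0.0869), and with normexp background correction it was -0.25. It passed with array weights (0.56, adjusted p = 0.0143), with the replicate number as a block (0.50, adjusted p = 0.0459) and without wild-type replicate 1 (0.66, adjusted p = 0.0242). Dim probes in general were more often called higher: among the 6292 tested probes with a mean level below -4 the median difference was 0.47 and 35.0% were called higher, and among the 9382 between -4 and -2 the values were 0.23 and 24.4%.

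Inha, the alpha chain that makes a dimer an inhibin, was called higher with both of its probes. The probe nearer the 3′ end (A_52_P401484, chr1:75736294-75736353, plus strand, mm7) was at 3.13, 2.24, 2.82 and 2.90 on the mutant arrays, against 1.93, 1.55, 1.47 and 1.34 on the wild-type arrays. No mutant array reached down into the wild-type range, and mutant replicate 2 was the lowest of its group. The mean was 2.77 ± 0.38 in the mutant and 1.57 ± 0.25 in wild type (SD, n = 4 each), a 2.29-fold difference (log2 1.20, SE 0.21, 95% interval 0.73 to 1.67, limma adjusted p = 0.00464). It passed under all 4 other scalings and in all 8 fits without 1 array. Among the 3133 tested probes with a mean level between 2 and 4, the median difference was -0.36 and 8.39% were called higher.

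The other Inha probe (A_51_P434554, chr1:75733574-75733633, plus strand, mm7) lies 2661 bases upstream of the first in the genome. It was at -0.30, -1.10, -0.72 and -0.07 on the mutant arrays, against -1.41, -1.54, -1.60 and -1.31 on the wild-type arrays. The order of the mutant arrays differed between the probes, but with both mutant replicates 1 and 4 were the highest and mutant replicate 2 the lowest. This probe was 1.89-fold higher in the mutant (log2 0.92, SE 0.22, limma adjusted p = 0.0137). The gap between the probes, the first minus the second, was 3.32 ± 0.25 in the mutant and 3.04 ± 0.28 in wild type (SD, n = 4 each), and the change of 0.28 did not pass a two-sided exact permutation test (p = 0.229). Without mutant replicates 1 and 4 the probes gave 0.95 (adjusted p = 0.0671) and 0.56 (adjusted p = 0.102).

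Inhba, the beta chain of inhibin A and activin A, passed the test but with overlapping groups. Its probe (A_51_P239750, chr13:15394279-15394338, plus strand, mm7) was at -2.45, -3.78, -3.35 and -2.56 on the mutant arrays, against -3.69, -4.13, -4.09 and -3.82 on the wild-type arrays. Mutant replicates 1 and 4 were the highest, and mutant replicate 2 lay within the wild-type range. The mean was -3.04 ± 0.64 in the mutant and -3.93 ± 0.21 in wild type (SD, n = 4 each), a difference of 0.89 (SE 0.29, 95% interval 0.25 to 1.53, limma adjusted p = 0.0394). Without mutant replicates 1 and 4, the pair with the high levels of epididymis markers, it was 0.37 (adjusted p = 0.270). Among the mutant arrays, both Inha probes were also highest on replicates 1 and 4. So were the mean levels of the Leydig, macrophage, peritubular myoid and endothelial markers. The part of any of these cell types in the Inhba level was not tested. The call ended in 6 of the 8 fits that left out 1 array (without mutant replicates 1, 3 or 4, or wild-type replicates 2, 3 or 4) and under every other scaling, with 0.20 after normexp as the smallest difference.

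**Figure D2:**
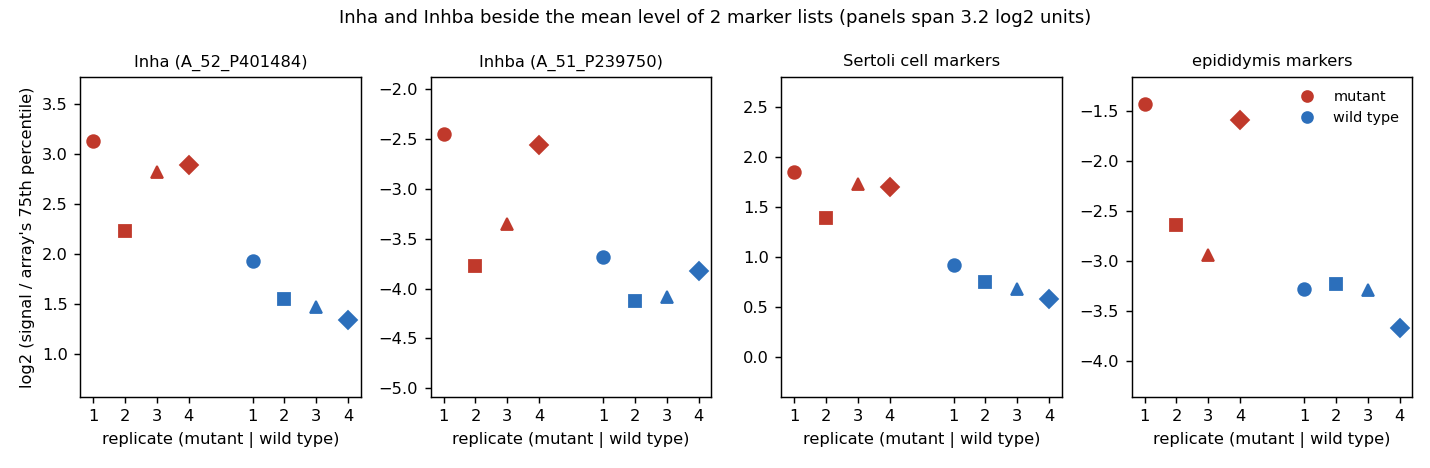
Level of Inha and Inhba on each array beside the mean level of the Sertoli cell and the epididymis markers, all as log2 relative to the 75th percentile, with mutant replicates 1 to 4 in red on the left of each panel and wild-type replicates in blue on the right. Among the mutant arrays, Inha, Inhba and the epididymis markers were all highest on replicates 1 and 4. The Sertoli markers lay between 1.39 and 1.85 on all 4 mutant arrays.

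For Inhbb, the beta chain of inhibin B, the probes disagreed in sign. The probe A_51_P325904 (chr1:119276025-119276084, minus strand, mm7) was at 1.80, 1.48, 1.72 and 2.26 on the mutant arrays, against 1.18, 0.99, 0.95 and 1.22 on the wild-type arrays. The groups did not overlap, and the difference was 0.73 (SE 0.18, 95% interval 0.33 to 1.13, 1.66-fold, limma adjusted p = 0.0153). It passed under every other scaling and in all 8 fits without 1 array, but not without mutant replicates 1 and 4 (0.51, adjusted p = 0.102).

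The Inhbb probe A_52_P152847 (chr1:119278359-119278418, minus strand, mm7) lies 2275 bases away on the 5′ side of the transcript. It was at -3.44, -3.15, -3.28 and -2.62 on the mutant arrays, against -2.63, -2.69, -2.93 and -2.68 on the wild-type arrays. Mutant replicates 1 to 3 lay below all wild-type arrays, and mutant replicate 4 lay above them. The difference was -0.39 (SE 0.19, 95% interval -0.81 to 0.03, limma adjusted p = 0.129). It passed as lower in the mutant with median scaling (-0.61, adjusted p = 0.0251), quantile normalization (-0.63, adjusted p = 0.0301), cyclic loess (-0.64, adjusted p = 0.0270) and array weights (-0.41, adjusted p = 0.0309), and without mutant replicate 4 (-0.56, adjusted p = 0.0320).

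The gap between the Inhbb probes, A_51_P325904 minus A_52_P152847, cancels any scaling of a whole array. It ran from 4.63 to 5.24 on the mutant arrays, against 3.68 to 3.90 on the wild-type arrays. Every mutant gap exceeded every wild-type gap, by 1.12 on average. The two-sided exact permutation p of 0.0286 is the smallest that 4 against 4 arrays allow, and over the 2 genes with a pair of probes it became 0.0571. Which transcript ends or which other sequence either probe binds was not tested, and this gap was examined after its values were seen.

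Follistatin, the secreted antagonist of activins, gave no call. Its probe (Fst A_51_P381821, chr13:111626922-111627594, minus strand, mm7, a 60-base probe that spans 673 bases of genome) was at -4.39, -4.87, -4.35 and -5.19 on the mutant arrays, against -5.27, -4.72, -4.58 and -5.95 on the wild-type arrays. It was well above background on 4 mutant and 3 wild-type arrays. The groups overlapped widely, with a difference of 0.43 (SE 0.31, 95% interval -0.27 to 1.13, limma adjusted p = 0.301). The sign turned with quantile normalization (-0.08) and with normexp (-0.34).

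**Figure D3:**
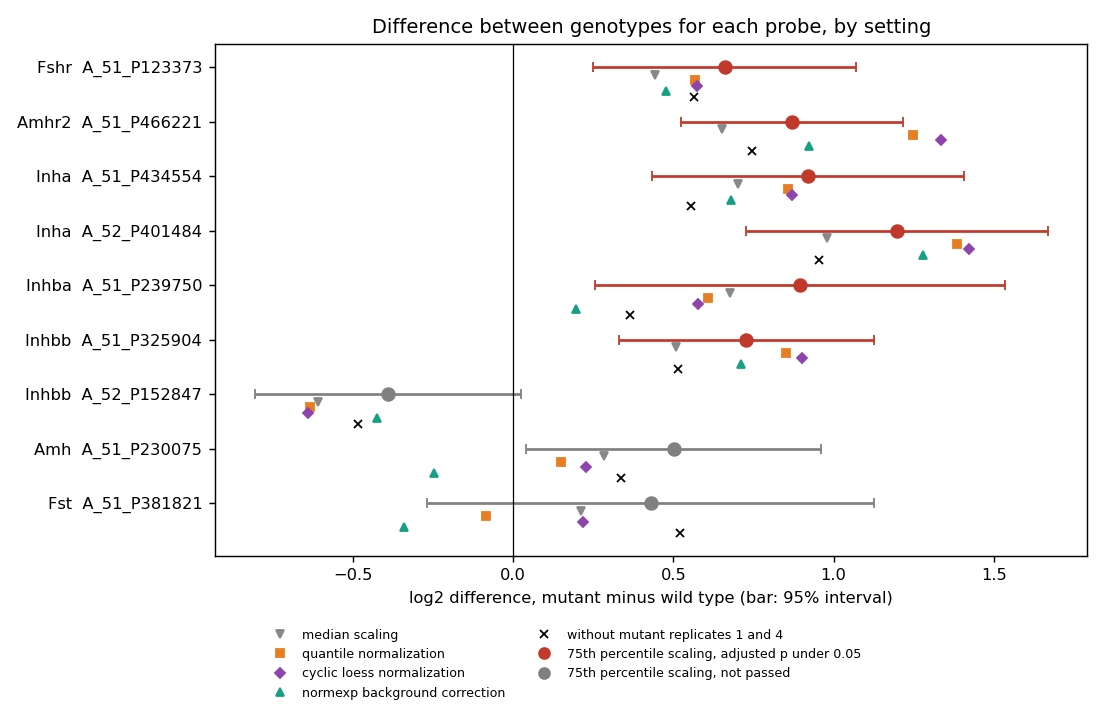
Log2 difference, mutant minus wild type, of each probe with its 95% interval (red where the adjusted p is under 0.05, grey where it is not) and, as small symbols, the difference under 4 other scalings and without mutant replicates 1 and 4. Inha and Amhr2 lie right of 0 under every setting drawn, Inhbb A_52_P152847 lies left of 0, and Amh and Fst fall on either side.

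The dimer partners were set against each other as changes. Inha minus Inhbb (A_51_P325904) was 0.96 ± 0.32 in the mutant and 0.49 ± 0.26 in wild type (SD, n = 4 each), with 3 of 4 mutant arrays above all wild-type arrays. The change of 0.47 had a two-sided exact permutation p of 0.0571 and 0.114 after adjustment over the 2 chains. Inha minus Inhba was 5.81 ± 0.34 in the mutant and 5.50 ± 0.23 in wild type (SD, n = 4 each), a change of 0.30 (exact permutation p = 0.257). This change depended on the scaling: quantile normalization gave 0.78, cyclic loess 0.85 and normexp 1.08, each at an exact permutation p of 0.0286 (0.0571 after adjustment). With 2 pairs and 4 against 4 arrays, an adjusted p under 0.05 needs both pairs to separate fully.

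Sertoli cell markers were higher in the mutant. Of the 22 markers 18 were called higher and 0 lower, with a median difference of 0.97, and their mean level was 1.39 to 1.85 on the mutant and 0.57 to 0.92 on the wild-type arrays. Without mutant replicates 1 and 4 the median was 0.85 and 4 markers were called higher. Germ cell markers went the other way, with 0 of 16 called higher, 7 lower and a median difference of -0.41. The share called lower was 43.8%, where 12.2% of all 23962 genes were called lower. The mean level over the 16 markers was high, at 4.77 to 5.22 on the mutant and 5.25 to 5.45 on the wild-type arrays. The 1473 tested probes with a mean level above 4 had a median difference of -0.44. The median of the germ cell markers was thus no lower than that of bright probes in general. The direction of the germ cell markers depended on the scaling. Median scaling gave 9 lower and 0 higher and normexp 4 lower and 0 higher. Cyclic loess gave 1 called higher and 0 lower (3 and 2 at an unadjusted p under 0.05), and quantile normalization gave 0 calls (1 higher and 2 lower unadjusted). In RNA of whole testis, more cells of a type and more RNA per cell cannot be told apart. Leydig cell markers had 5 of 11 called higher and macrophage markers 7 of 9, with mean macrophage levels of -0.99 to 0.12 on mutant and -1.37 to -1.11 on wild-type arrays. Without mutant replicates 1 and 4 these calls numbered 1 and 0. They were 3 and 3 with median scaling, 6 and 3 with normexp, 8 and 4 with quantile normalization, and 8 and 6 with cyclic loess. The called markers of peritubular myoid cells were 1 of 8, those of endothelium 2 of 8 and those of the epididymis 3 of 11. These shares were 12.5%, 25.0% and 27.3%, where 21.6% of all 23962 genes were called higher. The epididymis genes were Spink8, Crisp1 and Cd52, and another 4 markers on the array (Lcn5, Lcn8, Adam7 and Defb42) were above background on too few arrays to be tested. The part of these cell types in the levels of the 7 genes was not tested.

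Measured against the mean of the Sertoli markers on the same array, none of the 7 genes passed at an adjusted p under 0.05 (two-sided exact permutation tests, adjusted over the 7, smallest possible p 0.0286). With these numbers, an adjusted p under 0.05 needs more than 4 of the 7 genes to separate fully. A gene could not pass alone, however far its groups lay apart. Amhr2 minus this mean was 4.73, 4.63, 4.63 and 4.62 on the mutant arrays, against 4.75, 4.71, 4.70 and 4.73 on the wild-type arrays. The values lay within a narrow range on all 8 arrays. The change was -0.07 (exact permutation p = 0.0857, adjusted p = 0.20). It turned to 0.22 after quantile normalization (exact permutation p = 0.0286, adjusted p = 0.0667) and 0.27 after cyclic loess (exact permutation p = 0.0286, adjusted p = 0.10). Under both of these settings the genotypes did not overlap, with Amhr2 higher in the mutant. After normexp the change was 0.10 (exact permutation p = 0.229, adjusted p = 0.267). For Inha the change was 0.26 (exact permutation p = 0.0571, adjusted p = 0.20), with 3 of 4 mutant arrays above all wild-type arrays. For Amh it was -0.44, with all 4 mutant arrays below the wild-type arrays (exact permutation p = 0.0286, adjusted p = 0.20). The changes were -0.28 for Fshr, -0.05 for Inhba, -0.21 for Inhbb and -0.51 for Fst, with adjusted p from 0.32 to 0.914. With normexp the changes were larger, at 0.45 for Inha, -0.63 for Inhba, -1.07 for Amh and -1.17 for Fst, and in these 4 genes the genotypes did not overlap (exact permutation p = 0.0286, adjusted p = 0.05, at the threshold). Normexp adds an offset of 50 to every signal, which draws dim probes toward a common value. The processed signals were 12.8 to 47.5 for Fst, 29.9 to 84.8 for Amh and 39.1 to 190 for Inhba. The part of the offset in these changes was not tested. Quantile normalization gave -0.88 for Amh and -1.11 for Fst (exact permutation p = 0.0286, adjusted p = 0.0667), and cyclic loess gave -0.84 for Amh (exact permutation p = 0.0286, adjusted p = 0.10) and -0.85 for Fst. Inhba was -0.42 and -0.49 under these 2 settings, and Fshr -0.46 and -0.49. A p that misses the threshold does not show that these genes moved as the markers did.

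**Figure D4:**
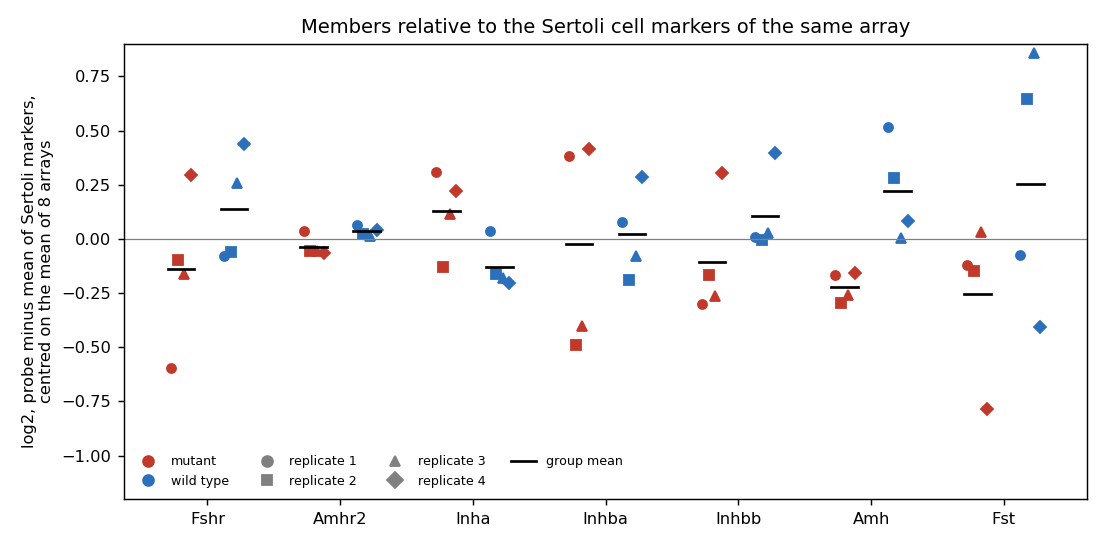
Level of each of the 7 genes minus the mean of the 22 Sertoli cell markers on the same array (log2, each gene centred on its mean over 8 arrays), with mutant arrays in red to the left of wild-type arrays in blue and the group means as lines. Amhr2 stays within a narrow band on all arrays, and all 4 mutant points of Amh lie below its wild-type points.

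By the probe with the highest mean level, the receptors that bind activins and inhibins gave no limma call among 6 genes (2 higher and 1 lower at an unadjusted p under 0.05), with a median difference of 0.37, but another probe of Acvr2a and of Acvr1b was called higher. Acvr2a, a type 2 activin receptor, had a difference of -0.41 without overlap (adjusted p = 0.0522) and passed as lower under all 4 other scalings, from -0.62 to -0.50, but its other probe, A_52_P11800, was higher by 1.39 (SE 0.12, adjusted p = 0.00031). Acvr2b, the related type 2 receptor, had 0.26 (adjusted p = 0.458). Tgfbr3 (betaglycan), the co-receptor that lets inhibin hold the type 2 receptors, was at -3.04, -2.87, -2.96 and -2.91 on the mutant arrays, against -5.38, -5.26, -3.13 and -3.43 on the wild-type arrays. The wild-type arrays were far apart from each other, and the difference of 1.35 (SE 0.48) had an adjusted p of 0.0549. Of the type 1 receptors, Acvr1b had -0.22 (adjusted p = 0.291) and its other probe, A_51_P402391, was higher by 0.45 (adjusted p = 0.0292). Acvr1c had 0.70 (adjusted p = 0.0877) and Acvr1, which also serves AMH, 0.47 (adjusted p = 0.127). Bmpr1a, another type 1 receptor used by AMH, was higher by 0.61 (adjusted p = 0.0126), a call lost with median scaling (0.39) and normexp (0.20). The other Bmpr1a probe, A_52_P624572, was uncalled (0.46, adjusted p = 0.132).

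Among the other ligand chains and follistatin relatives, 2 of 6 were called higher (33.3%, against 21.6% of all genes) and 0 lower. They were the follistatin-like gene Fstl5 (1.25, adjusted p = 0.00293) and Inhbe, a beta chain best known from liver (0.53, adjusted p = 0.0232). Fstl5 lost its call with normexp (0.47), and Inhbe lost its call under all 4 other scalings (0.32 with median scaling, 0.30 after quantile normalization, 0.31 after cyclic loess and -0.06 after normexp). Of the SMAD proteins that carry these signals to the nucleus, 1 of 7 was higher and 1 lower by the probe with the highest mean level. Another probe of Smad4 was called higher (0.66, adjusted p = 0.0101). Smad3, which serves activin, was higher with all 3 of its probes, by 0.88 (adjusted p = 0.00952), 0.81 and 1.30. Smad1, which serves BMP and AMH receptors, was lower with both of its probes, at -0.77 (adjusted p = 0.0267) and -0.73, and its groups overlapped with the first. The Smad3 call was lost with normexp (0.33) and the Smad1 call with quantile normalization (-0.59) and cyclic loess (-0.54).

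On the FSH side, 6 of 21 cAMP signalling genes were called higher by the probe with the highest mean level (28.6%), and 1 lower (4.76%). Of all 23962 genes 21.6% were called higher and 12.2% lower. Of the 21 genes, higher calls numbered 2 with median scaling, 3 with normexp and 4 each with quantile normalization and cyclic loess. Another probe, not counted here, was called higher for Gnas (1.29, adjusted p = 0.00523), Pde4b (1.58, adjusted p = 0.00816) and Prkacb (0.60, adjusted p = 0.0475). The adenylyl cyclases Adcy9 and Adcy7, which make cAMP, were higher by 1.02 (adjusted p = 0.00379) and 1.06 (adjusted p = 0.00556), and both passed under all 4 other scalings. The other Adcy7 probe, A_51_P441622, was uncalled (0.79, adjusted p = 0.0587). Prkar1a, a regulatory subunit of the cAMP-dependent kinase, was higher by 0.42 (adjusted p = 0.0299) but not with median scaling (0.21) or normexp (0.37). Pde4d, a phosphodiesterase that breaks cAMP down, was higher by 0.52 (adjusted p = 0.0331), and it passed under none of the other scalings (-0.17 with normexp). Its other probes were uncalled, at 0.40 (adjusted p = 0.131) and 0.73 (adjusted p = 0.162). Of genes known to respond to FSH or cAMP in Sertoli cells 7 of 17 were called higher (41.2%) and 3 lower (17.6%). Shbg, the androgen-binding protein of Sertoli cells, was higher by 1.31 (adjusted p = 0.00449) and the AP-1 subunit Junb by 1.00 (adjusted p = 0.00741). Ldha, a lactate dehydrogenase chain, was lower, at -0.67 (adjusted p = 0.00743), a call lost with quantile normalization (-0.27) and cyclic loess (-0.18). With normexp the median of the 17 genes was -0.08, against 0.50 with the 75th percentile.

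Transcription factors that act on Fshr or Amh were called higher in 10 of 12 genes and lower in 0, with a median difference of 0.82, and 8 of the 12 are also on the list of Sertoli markers. Nr5a1 was not among the called genes, but its other probe was higher by 0.69 (adjusted p = 0.0094). Wt1 was higher by 1.12 (adjusted p = 0.00234), Sox8 by 1.11 (adjusted p = 0.00396), Sox9 by 0.95 (adjusted p = 0.0064) and Gata1 by 0.86 (adjusted p = 0.00689). Over the 72 tested genes of all these pathway lists, each taken once, 26 were higher (36.1%) and 6 lower (8.33%), where 21.6% and 12.2% of all 23962 genes were called by the same kind of probe. The pathway counts were 15 higher and 13 lower with median scaling, 13 higher with normexp, and 2 higher and 0 lower without mutant replicates 1 and 4. The hormone subunit genes of the pituitary were measured too: Lhb was lower, at -0.43 (adjusted p = 0.0316), and Fshb and Cga had -0.33 and 0.44 without a call. The other Lhb probe, A_52_P658479, was uncalled (-0.70, adjusted p = 0.0569).

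**Figure D5:**
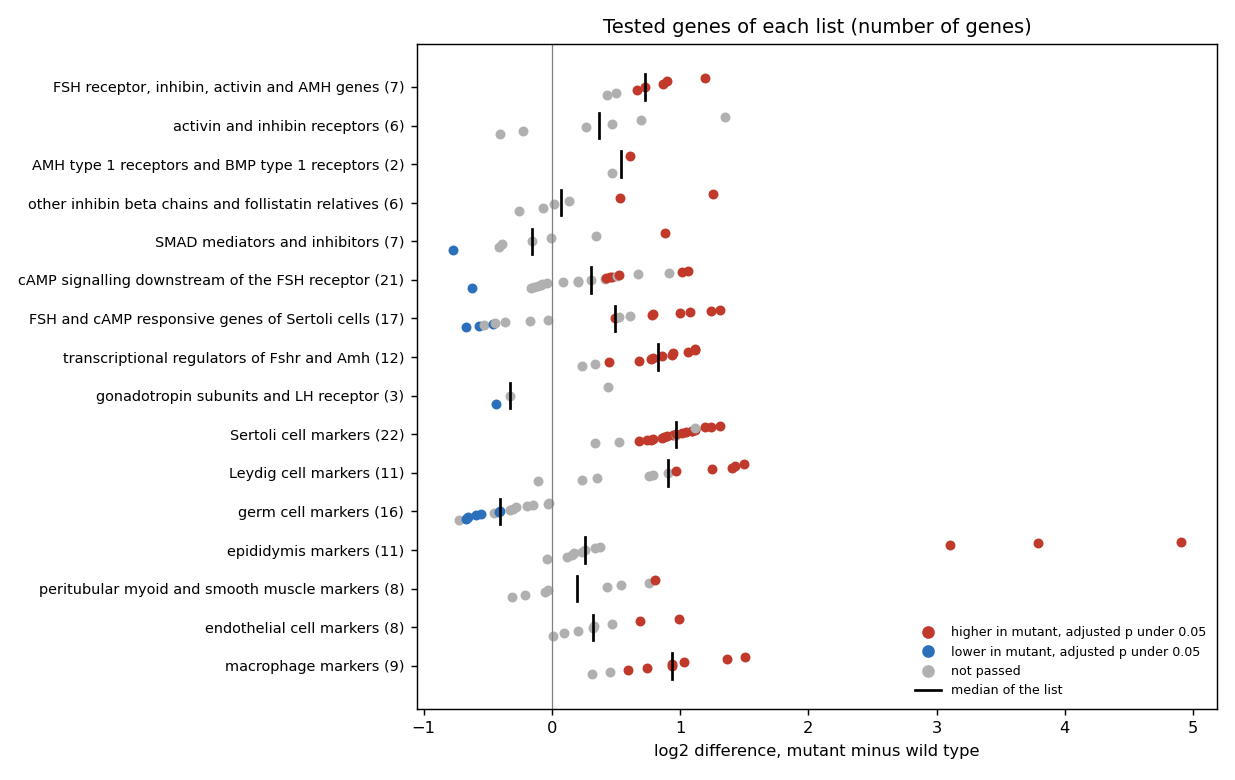
Log2 difference, mutant minus wild type, of each tested gene in the 7 genes, the pathway lists and the marker lists, by its probe with the highest mean level, in red where called higher, blue where called lower, grey where not called, with the median of each list as a black line. The transcription factors of Fshr and Amh sit near the Sertoli markers (medians 0.82 and 0.97), while the activin receptors hold no call with the probe drawn.

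The promoter of Fshr is shown because the upstream factors Usf1 and Usf2, known from rat Sertoli cells to act on Fshr through an E-box, were both called higher, by 0.93 (adjusted p = 0.0187) and 0.45 (adjusted p = 0.0395). Both were picked with their values known, and the Usf2 call was lost with median scaling (0.23) and normexp (0.29). The other Usf2 probe, A_51_P285844, was uncalled (0.38, adjusted p = 0.134). The 250 bases before the annotated Fshr start (chr17:89200676-89200925, minus strand, RefSeq on GRCm38.p6) were searched on both strands for 5 motifs, and the 1 match overlapped no other. Capitals mark the single match, an E-box 61 to 56 bases before the start.
Fshr: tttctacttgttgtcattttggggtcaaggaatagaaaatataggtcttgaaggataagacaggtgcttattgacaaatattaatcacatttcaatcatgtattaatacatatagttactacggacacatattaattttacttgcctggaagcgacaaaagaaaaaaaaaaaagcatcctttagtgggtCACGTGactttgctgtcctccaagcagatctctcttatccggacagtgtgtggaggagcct
The E-box was searched as CACGTG, which 6.02% of 32851 RefSeq promoters hold in the same 250 bases. The cAMP response element was searched as TGACGTCA, found in 1.55% of them, and in a variant form as TGCGTCA, found in 1.75%. The element of the nuclear receptor SF-1 was searched as AAGGTCA, found in 4.08% of promoters. The GATA factor motif was searched as AGATAA, found in 9.99% of promoters. The same window of Inhbb held none of the 5. The windows of Amhr2, Inha and Inhba start 365, 532 and 7595 bases inside the gene as annotated and were not searched. A match is a description of these letters, and binding was not measured.

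The genes whose profile over the 8 arrays was nearest to each member were found among 17023 genes with a symbol, by the root mean square difference of the log2 levels after each profile was centred on its own mean. Amhr2 was followed most closely, by Ddah1 at 0.0226, Gcdh at 0.0379 and Comtd1 at 0.0528. Inhbb (A_51_P325904) was followed by Dnmbp at 0.0254, Svil at 0.0443 and Pfkl at 0.0490, and Inha by Ctnnal1 at 0.0451, Litaf at 0.0818 and Helt at 0.0838. For Amh the nearest were Mill2 at 0.0729, Rest at 0.0749 and Gprc5c at 0.106, and for Fshr Colgalt1 at 0.0930, Dmrtc1b at 0.0959 and Wdyhv1 at 0.0987. For Inhba they were Itpr1 at 0.102, Vsir at 0.103 and Smarcd3 at 0.106, and for Fst Mtx3 at 0.142, Zkscan3 at 0.157 and Ctnna2 at 0.176. These profiles share the 8 arrays and the difference between the genotypes.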

How the data were processed

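RNA of whole testicular cells was measured on 8 single-colour Agilent arrays, 4 mutant and 4 wild type, grouped by the submitters' labels. The labels do not say which animals the replicates came from, so p-values measure the spread between these samples. Per the submitters' processing notes, signals came from Agilent Feature Extraction 9.5.3.1. The deposited intensity of each spot is its processed signal, background-subtracted and detrended within the array per the file headers. The deposited mean and background intensity served only normexp (offset 50). The series' value table repeats this processed signal for all 45018 features of each array, within a relative tolerance of 1e-04.

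From these, each signal was divided by the 75th percentile over the non-control features of its array, raised to a floor of 0.0144 of it, and converted to log2. Outlier spots were left out and repeated spots averaged. Probes had to lie well above background on 4 or more of the 8 arrays, and the 33716 left were tested together with limma 3.58.1 in R 4.3.3 (genotype only, two-sided, Benjamini-Hochberg, threshold 0.05). The procedure was tested on simulated data. A gene of a list is represented by its kept probe with the highest mean level. Named genes are all members with every probe, Vrk1, all activin and inhibin receptors, the called genes with the smallest p (up to 4) of each pathway list, up to 3 genes per marker list, and the 3 nearest profiles of each member. Of the genes picked by this rule, 1 is not reported here. The members and lists were chosen with earlier results of these data known. Probe positions are given as in the array files (mm7), and promoters are from RefSeq (GRCm38.p6), which matched 5 of the 7 genes. The number of arrays limits the precision. No feature was saturated.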

Additional observations from a re-analysis of the deposited data

How the results depend on the processing

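Amhr2, Inha (A_52_P401484) and Inhbb (A_51_P325904) kept their direction under every alternative run and lost their calls only without mutant replicates 1 and 4, at 0.74, 0.95 and 0.51. Leaving out 1 array gave 0.79 to 0.97, 1.08 to 1.37 and 0.58 to 0.84. Fshr was 0.44 with median scaling, 0.57 with quantile normalization, 0.48 with normexp and 0.57 without mutant replicates 1 and 4, each uncalled, and 0.50 to 0.75 without 1 array. Inhba was uncalled at 0.68, 0.61, 0.58 and 0.20 with median, quantile, cyclic loess and normexp, 0.89 without the filter on dim probes and 0.37 without mutant replicates 1 and 4, and 0.70 to 1.14 without 1 array. Amh reversed to -0.25 with normexp and was called with array weights (0.56), and it ran from 0.40 to 0.66 without 1 array, called without wild-type replicate 1. Fst reversed to -0.084 with quantile and -0.34 with normexp, and was 0.16 to 0.61 without 1 array. Inhbb A_52_P152847 ran from -0.56 to -0.28 and Inha A_51_P434554 from 0.76 to 1.10.

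Member probes called higher numbered 0 without mutant replicates 1 and 4 and 4 to 7 without 1 array. Member probes called lower numbered 1 with median, quantile and cyclic loess scaling and with array weights, and 0 to 1 without 1 array. Over all probes, calls higher were 4489 with median, 4414 with quantile, 2092 with normexp and 1318 without mutant replicates 1 and 4, and 4781 to 7348 without 1 array. Calls lower were 8768 with median scaling, 7940 with array weights and 220 without those replicates, and 1664 to 4411 without 1 array. Pathway genes called higher were 15, 13 and 2 with median scaling, with normexp and without those replicates, and 17 to 28 without 1 array. Those called lower were 13, 12 and 0 with median scaling, array weights and without those replicates, and 2 to 7 without 1 array. The median difference of all probes was -0.17 with median scaling and -0.23 with normexp. The causes were not tested.

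Relative to the Sertoli markers, Amhr2 reversed to 0.22, 0.27 and 0.10 with quantile, cyclic loess and normexp. Inhba moved to -0.47 without mutant replicates 1 and 4 and ran from -0.19 to 0.11 without 1 array, reversing without mutant replicate 2 (0.11), mutant replicate 3 (0.08) or wild-type replicate 4 (0.04). The other ranges without 1 array were -0.43 to -0.13 for Fshr, 0.20 to 0.34 for Inha, -0.35 to -0.12 for Inhbb, -0.51 to -0.34 for Amh and -0.73 to -0.31 for Fst, and 0.34 to 0.58 for Inha minus Inhbb. With 3 against 4 arrays these permutation tests cannot go below 0.0571.

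With the replicate number as a block, 7 member probes were called higher, Amh among them (0.50, adjusted p = 0.0459), and calls lower over all probes were 5913. The deviations of same-numbered arrays correlated at 0.28, 0.24, 0.09 and 0.61, with that of replicate 3 under 0.1, so the numbers were not taken to pair the samples. Wild-type replicate 3 correlated best with mutant replicate 2 (0.20), and the other 7 arrays with their own number.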
